A study of Mus musculus with 6 samples.

Results

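The antigen receptor loci of the mouse hold the gene segments from which B and T lymphocytes assemble their receptors. The loci are Igh (immunoglobulin heavy chain, chromosome 12), Igk (kappa light chain, chromosome 6), Tcrb (T cell receptor beta, chromosome 6) and the joint Tcra and Tcrd locus (T cell receptor alpha and delta, chromosome 14). Each was taken by its coordinates on the mouse build mm9, as chr12:114490001-117250000, chr6:67500001-70700000, chr6:40840001-41510000 and chr14:53000001-54850000. The unit was the non-overlapping 1 kb window with at least 3 CpGs, and the loci held 6244 of the 2068245 such windows on the autosomes. The windows were taken by coordinates and CpG number and not by level, but the loci were chosen with earlier results of these data known.

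The assay was whole-genome bisulfite sequencing of bulk LSK cells, named for lack of lineage markers and presence of Sca-1 and c-Kit, a population of bone marrow with blood stem cells and early progenitors. The 3 samples labelled Tet2/3 DKO came from mice lacking both Tet2 and Tet3, genes of enzymes that oxidise 5-methylcytosine, and the 3 samples labelled Wild Type (WT) came from mice with both genes. The cells were flushed from femurs and tibiae, depleted of lineage-positive cells with magnetic beads and sorted. The labels used here state no age, strain or Cre driver, nor the number of animals behind a sample. The samples are labelled as biological replicates, so p-values of parts refer to the spread between them. P-values of single windows also lean on a spread estimated over all tested windows.

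An antigen receptor locus is built of many variable (V) segments at one end and of joining (J) and constant (C) segments at the other. Igh, Tcrb and Tcrd also have diversity (D) segments between V and J. In developing lymphocytes the RAG recombinase joins 1 segment of each kind and the DNA between them is lost or inverted, first D to J and then V to DJ in loci with D segments. In stem cells the loci stand, as a rule, in their germline order, and at the immunoglobulin loci loss of CpG methylation goes with recombination and transcription in later B-lineage cells. Tet enzymes take part in that loss of methylation at Igk in B-cell precursors.

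In the RefSeq gene table, which is on another build and was used for names and order only, Igh had 120 V, 10 D, 4 J and 8 C segments. Igk had 102 V, 5 J and 1 C segments, Tcrb had 22 V, 2 D, 13 J and 2 C, and Tcra with Tcrd had 119 V, 2 D, 53 J and 2 C. At Igh the constant genes come first by coordinate and the V segments last, and at the other 3 loci the order is the opposite. Trypsinogen genes, which encode digestive proteases, lie within Tcrb between the V segments and the first D segment. The loci were therefore split into 9 parts. Each locus had a V part and an end with its J, C and any D segments. Tcrb also had the trypsinogen interval. The borders between parts are approximate, since no mm9 annotation was used, and an end may also hold single V segments.

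The table held 101957758, 111763872 and 83560585 read calls at CpGs in the DKO samples, against 70917633, 72747248 and 70815948 in the WT samples. A CpG had on average 4.99, 5.46 and 4.09 reads in DKO and 3.47, 3.56 and 3.46 in WT, so counting error was larger in WT. Reads were also counted at the targeted genes, over segments taken as lost in DKO, so the counts are no independent check of the labels. A segment of the Tet2 region (chr3:133132001-133136000) had 0 reads in each DKO sample and 109, 165 and 136 in the WT samples. A segment of the Tet3 region (chr6:83352001-83355000) had 14, 0 and 0 reads in the DKO samples and 208, 231 and 169 in the WT samples.

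Tcra with Tcrd, Tcrb and Igh, each taken whole, had higher methylation levels in every DKO sample than in any WT sample, by 2.32, 2.04 and 0.72 percentage points, and Igk did not. Along Igh the difference was uneven. A level is the share of reads that were methylated, in percent, summed over the windows. Bisulfite does not tell 5-methylcytosine from 5-hydroxymethylcytosine, and a level counts both. Over the whole Tcra and Tcrd locus the level was 88.3% ± 0.20 in DKO and 86.0% ± 0.477 in WT (SD, n = 3 each). Over whole Tcrb it was 88.8% ± 0.196 in DKO and 86.7% ± 0.267 in WT, over whole Igh 85.5% ± 0.547 in DKO and 84.7% ± 0.410 in WT, and over whole Igk 86.2% ± 1.02 in DKO and 86.7% ± 0.439 in WT. The rest of the autosomes, which includes CpG islands, was at 81.5% ± 0.823 in DKO and 80.7% ± 0.313 in WT. Autosomal windows of 3 to 10 CpGs, which are nearer to Igh, Igk and Tcrb in CpG density, were at 88.7% ± 0.578 in DKO and 88.0% ± 0.132 in WT. There too all DKO samples were above all WT samples, by 0.70 points. Tcra with Tcrd lies between this set and the rest of the autosomes in CpG density.

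Of the 9 parts, 8 had a higher mean in DKO, and in 5 of them every DKO sample was above every WT sample. In 0 parts were all DKO samples below all WT samples. Of the 5, Tcrb V and both parts of Tcra/Tcrd kept this order under every other choice of windows, CpG weights and borders and without any single sample, whereas Igh V and the trypsinogen interval overlapped under several choices of windows and CpG weights. With 3 samples against 3 the two-sided exact permutation test cannot go below p = 0.1, and after Benjamini-Hochberg adjustment over the 9 parts the smallest value was 0.18. No part therefore passed an adjusted threshold of 0.05, and the values below are given with their spread.

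**Figure D1:**
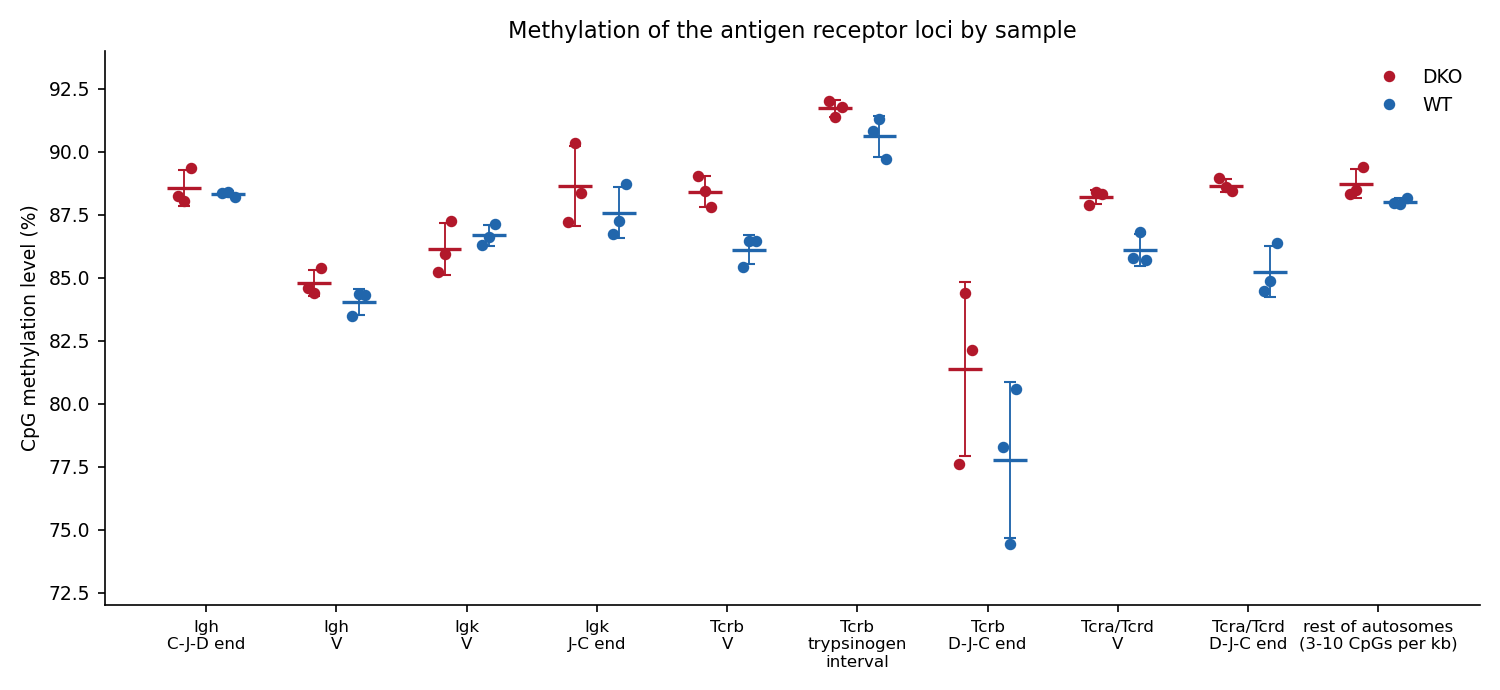
CpG methylation level in percent (y axis, which does not start at 0) of each part of the 4 loci and of the rest of the autosomes at 3 to 10 CpGs per kb, with DKO to the left of WT. Points are samples, horizontal lines are means and bars are SD (n = 3 each); in both parts of Tcra/Tcrd every DKO point lies above every WT point, and in the V part of Igk the points of both groups overlap.

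Within Tcra and Tcrd, the V part had levels of 87.9, 88.4 and 88.3% in DKO and 85.8, 86.8 and 85.7% in WT. The difference was 2.10 percentage points (SE 0.40; exact permutation test, p = 0.1, adjusted 0.18). The D, J and C end, which holds the Tcrd D, J and C segments followed by the Tcra J segments and constant gene, was at 88.9, 88.6 and 88.4% in DKO and 84.5, 84.9 and 86.4% in WT. Its difference was 3.41 points (SE 0.60; exact permutation test, p = 0.1, adjusted 0.18). The 2 groups did not overlap in either part.

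The end of Tcra and Tcrd also stood above the change of the autosomes as a whole. When the level of the rest of the autosomes was subtracted within each sample, its difference was 2.59 points and the groups did not overlap (exact permutation test, p = 0.1, adjusted over the 9 parts 0.45). The same subtraction left 1.28 points for the V part, with overlap (exact permutation test, p = 0.3) and a range of 0.72 to 1.83 points when single samples were left out. Against autosomal windows of 3 to 10 CpGs the differences were 2.70 points for the end and 1.40 points for the V part, with no overlap in either (exact permutation test, p = 0.1, adjusted 0.225 for both). In CpG density the V part lies between this set, at 6.03 CpGs per window, and the rest of the autosomes, at 9.27 per window. It had 10329 CpGs in 1377 windows of 3 or more CpGs. The end, with 1451 CpGs in 132 such windows, was denser than both sets. The V part minus the end was 1.31 points lower in DKO than in WT (SE 0.85; exact permutation test, p = 0.3), so a difference between the parts was not shown.

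Read depth at the end was itself higher in DKO. Relative to the autosomal mean of the same sample it was 1.10, 1.14 and 1.13 in DKO and 1.10, 1.10 and 1.08 in WT (exact permutation test, p = 0.1). Its part in the level was not tested. Over the V part relative depth was 0.780, 0.688 and 0.755 in DKO and 0.792, 0.731 and 0.747 in WT, with overlap.

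Shorter stretches of the end were set after the values had been seen and are given with no test. The Tcrd D, J and C segments (chr14:54710001-54768000) had levels of 89.5, 88.0 and 89.8% in DKO and 81.9, 84.1 and 84.6% in WT, a difference of 5.58 points with no overlap. Over the Tcra J segments (chr14:54768001-54838000) the levels were 92.1, 91.9 and 90.4% in DKO and 90.7, 88.3 and 90.3% in WT, a difference of 1.66 points, which was 0.93 points without WT replicate 2. There the lowest DKO sample and the highest WT sample overlapped. The stretch with the Tcra constant gene and its downstream flank (chr14:54838001-54850000) was at 75, 74.2 and 76.3% in DKO and 64.3, 70.8 and 74.3% in WT, with overlap and with a wide spread among WT samples; the difference of 5.37 points was 2.62 points without WT replicate 1. The V part was also divided at its midpoint. The D-proximal section differed by 2.31 points and the D-distal section by 1.75 points, and the groups overlapped in neither. Relative depth of the D-proximal section was lower in every DKO sample (0.851, 0.800 and 0.839) than in every WT sample (0.876, 0.853 and 0.882).

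In bins of 100 kb along Tcra and Tcrd, 17 of 18 bins had a higher mean in DKO, where 14683 of 23992 autosomal bins did. In 10 of 18 every DKO sample was above every WT sample, against 18.5% of all 23992 autosomal bins. In 0 of the 18 was every DKO sample below every WT sample, against 3.68% of autosomal bins. The median difference was 2.39 points over the 18 bins and 0.49 points over autosomal bins. The lowest bin of the locus was chr14:53600001-53700000, with an uneven 657 to 1755 reads a sample. It was at 78.2, 79.6 and 82.7% in DKO and 76.0, 77.8 and 72.6% in WT, and the groups did not overlap. The highest (chr14:54000001-54100000) was at 90.1, 93.3 and 92.1% in DKO and 90.6, 90.3 and 90.2% in WT, where DKO replicate 1 was below all WT samples.

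**Figure D2:**
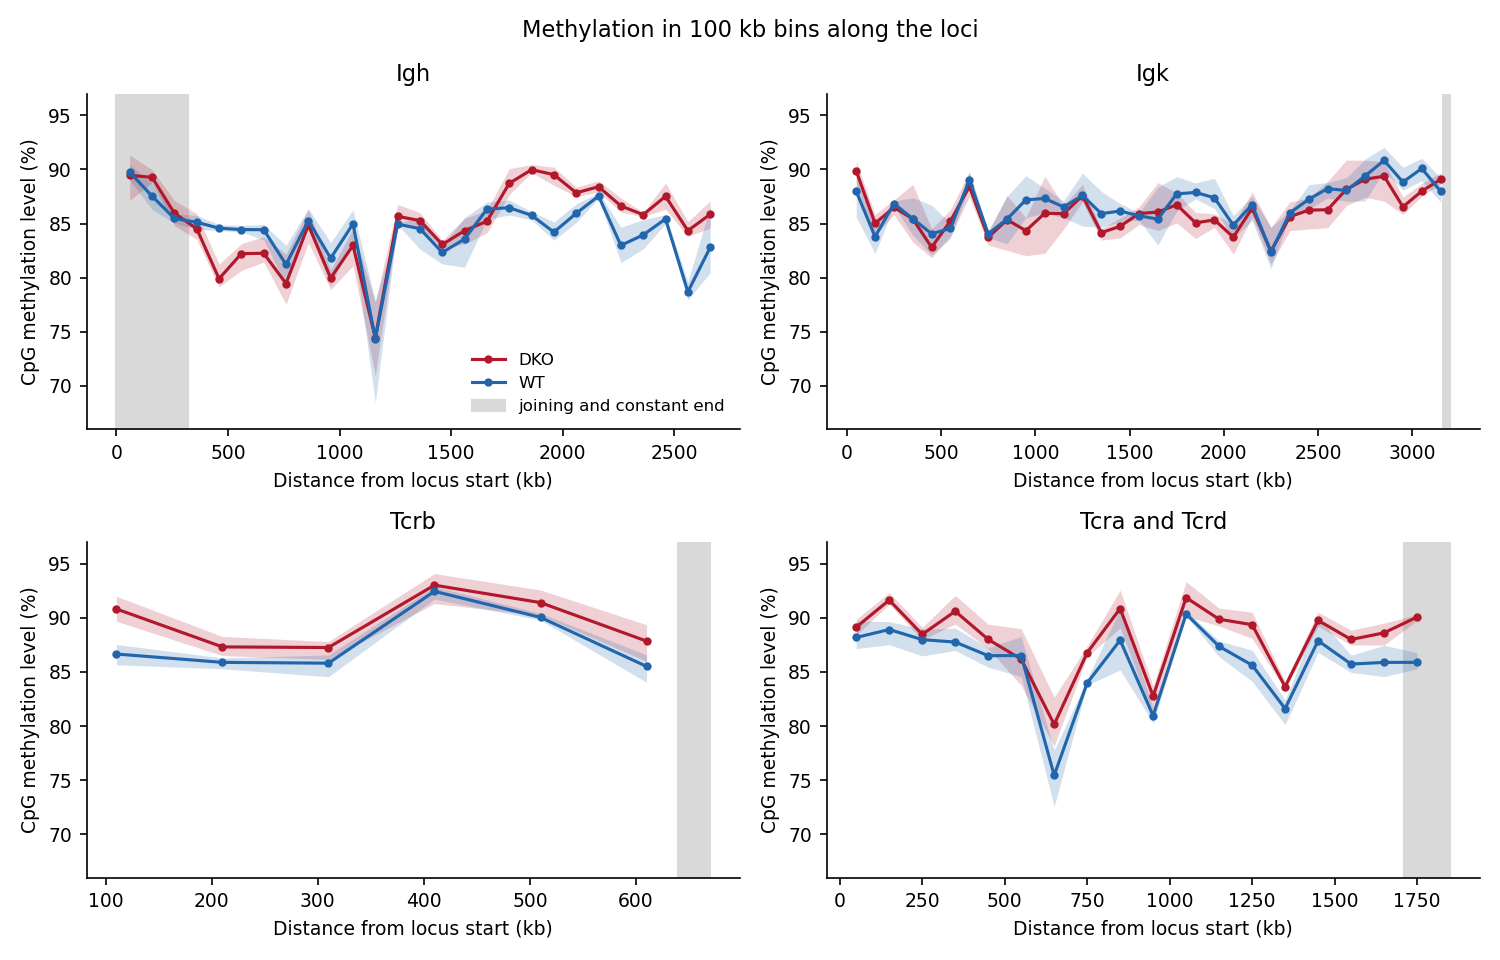
CpG methylation level in percent (y axis, which does not start at 0) in consecutive 100 kb bins against the distance from the start of each locus in kb. Lines with points are means of DKO and WT, bands run from the lowest to the highest sample of a group, and grey marks the joining and constant end; the DKO line runs above the WT line in 17 of 18 bins of Tcra and Tcrd, and at Igh the lines cross.

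Single windows were tested with a quasi-binomial model of methylated and unmethylated reads, fitted to all 774732 autosomal windows that had 20 or more reads in each of the 6 samples. Of the loci's windows 990 reached that depth. A window was called at a Benjamini-Hochberg adjusted p under 0.05 with a difference of at least 10 points. In the loci 3 of 990 windows were called higher in DKO, where 0.490% of all tested windows were, and 0 were called lower, where 0.00723% were. This share is near the background and sets the loci apart in neither direction. The calls also rested on the choice of test and on all 6 samples: 0 remained with limma on log2 ratios or with a minimum of 10 reads, and leaving out any single sample ended all 3 except that chr14:54741001-54742000 remained without WT replicate 2 (adjusted p = 0.0444). Over these leave-outs the differences of the 3 windows ranged from 18.5 to 40.3 points, all higher in DKO. At an unadjusted p under 0.05, 65 of 990 windows were higher and 20 lower, against 7.32% and 1.95% of all tested windows. Windows in which every DKO sample was above every WT sample numbered 87, or 8.79%, against 9.05% of all tested windows, and the reverse order held for 38, or 3.84%, against 3.75%. The median difference was 0.74 points in the 990 windows and 0.93 points in all tested windows.

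Few of the tested windows of the loci were weakly methylated. Of the 990, 27 (2.73%) had a mean level under 50% over the 6 samples, against 7.31% of all tested windows. From 50 to 80% there were 126 (12.7%), against 10.3%, and at 80% or more there were 837 (84.5%), against 82.4%. Windows under 50% had a median difference of 3.78 points, against 1.86 points in all tested windows of that class. Windows from 50 to 80% had one of 5.29 points, against 5.77 points, and windows at 80% or more one of 0.51 points, against 0.61 points. Per locus, windows with every DKO sample above every WT sample numbered 33 of 346 at Tcra and Tcrd, 11 of 72 at Tcrb, 21 of 310 at Igh and 22 of 262 at Igk. These were 9.54%, 15.3%, 6.77% and 8.40%, against 9.05% of all tested windows. Windows with the reverse order numbered 12, 1, 15 and 10 at the same 4 loci, or 3.47%, 1.39%, 4.84% and 3.82%, against 3.75%. The median difference was 1.90 points at Tcra and Tcrd, 3.74 at Tcrb, -0.37 at Igh and 0.04 at Igk.

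**Figure D3:**
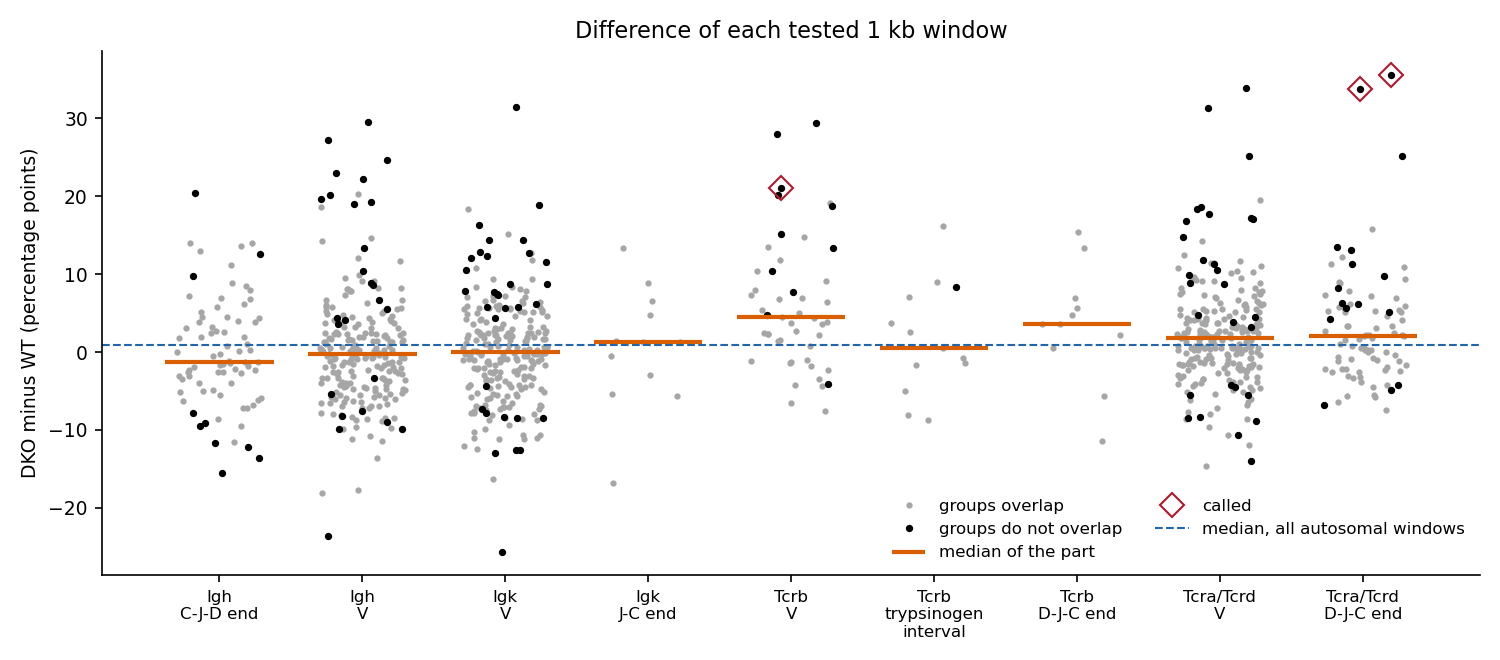
Difference in level, DKO minus WT, in percentage points (y axis) of each of the 990 tested windows by part of the loci. Black points are windows whose groups do not overlap, grey points are the others, diamonds mark the 3 called windows, orange lines are medians of the parts and the dashed line is the median of all tested autosomal windows (0.93 points).

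Of the 3 called windows, 2 lay in the stretch with the Tcrd D, J and C segments. Window chr14:54741001-54742000, with 13 CpGs and 43 to 112 reads a sample, had levels of 80.4, 88.4 and 82.4% in DKO and 42.4, 62.8 and 44.4% in WT. Every DKO sample was above every WT sample, and the mean difference was 33.8 points (quasi-binomial F test, adjusted p = 0.0104 over all tested windows). Of its 13 CpGs, 10 were higher in DKO, 1 was lower and 2 were equal. The window just before it was at 92.9, 82.6 and 94.7% in DKO and 77.8, 80.7 and 88.2% in WT, and the window just after it was at 90.4, 92.5 and 97.3% in DKO and 82.2, 96.2 and 100% in WT. The groups overlapped in both neighbours, so the low level in WT was 1 window wide at this resolution.

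Window chr14:54756001-54757000, with 11 CpGs and 34 to 96 reads, had levels of 97.8, 83.3 and 89.2% in DKO and 50, 60.5 and 52.9% in WT. The mean difference was 35.6 points (adjusted p = 0.0365), and it was the largest among windows of this locus whose groups did not overlap. Of the 9 CpGs read in both groups, 5 were higher in DKO, 1 was lower and 3 were equal. The next window was fully or nearly fully methylated in both groups, with 100, 97.4 and 94.1% in DKO and 100, 95.5 and 98.3% in WT. In the 5 kb before the called window no window was read in every sample, so its extent on that side is unknown. Which segment each of the 2 windows covers is not stated, since the segments' mm9 positions were not used here.

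**Figure D4:**
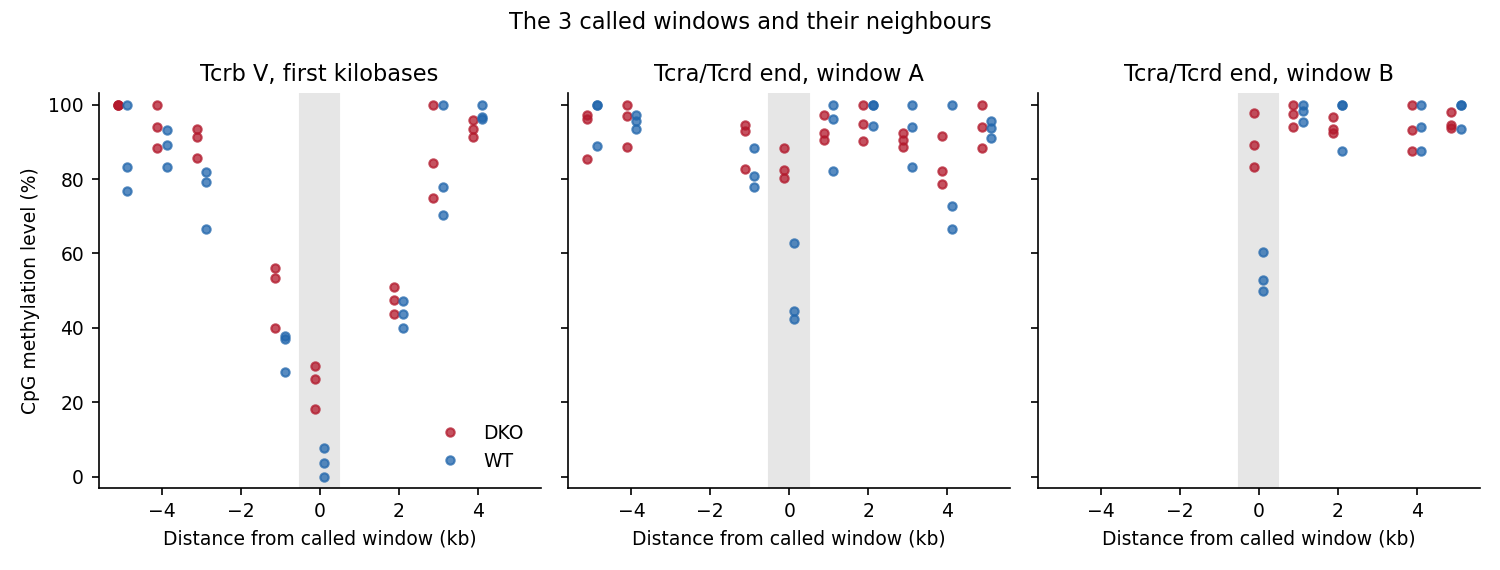
CpG methylation level in percent (y axis) of each sample in the 3 called windows (grey) and in listed windows with at least 5 reads in every sample up to 5 kb on either side, against distance from the called window in kb. The WT points drop below the DKO points in the called windows, and most neighbouring windows overlap between the groups.

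Other windows of Tcra and Tcrd were low in both groups. Window chr14:54847001-54848000, with 19 CpGs at the far end of the locus beyond the J segments, had 0% methylation in all 6 samples on 87 to 122 reads each. If the 87 reads were independent, a count of 0 would allow a level of up to 3.45%. A read counts at each CpG it covers, so the true limit is wider. Window chr14:54728001-54729000 was at 15, 20.5 and 14.7% in DKO and 12, 14.3 and 11.1% in WT, without overlap but with a difference of 4.27 points. In the V part the lowest tested windows were chr14:53010001-53011000, at 32.7, 41.4 and 33.3% in DKO and 20.0, 20.6 and 13.5% in WT, and chr14:54684001-54685000, at 22.9, 45.2 and 19% in DKO and 23.1, 37.3 and 18.5% in WT. The first had no overlap and the second overlapped.

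The largest differences among uncalled windows of Tcra and Tcrd ran both ways. Window chr14:54007001-54008000, with 5 CpGs, was at 90.5, 84.0 and 78.9% in DKO and 51.9, 50 and 50% in WT. Its 33.9 points were of the same size as in the called windows, on 21 to 38 reads. Lower in DKO was window chr14:53438001-53439000, at 79.7, 85.7 and 88.2% in DKO and 100, 98.0 and 97.8% in WT, and window chr14:53965001-53966000, at 73.8, 72 and 66.1% in DKO and 78.6, 85.1 and 80% in WT.

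At Tcrb, the V part had levels of 89.0, 88.4 and 87.8% in DKO and 85.4, 86.5 and 86.4% in WT. Every DKO sample was above every WT sample, by 2.30 points in the mean (SE 0.50; exact permutation test, p = 0.1, adjusted 0.18). Relative to the rest of the autosomes the difference was 1.49 points, with overlap (exact permutation test, p = 0.2). The value depends on how windows are weighted: as the mean of window levels over windows with at least 20 reads it was 6.05 points, and as the sum of reads over those windows 3.60 points. Over the D-distal section of the V part, divided at the midpoint after the values were seen, levels were 90.3, 88.6 and 88.3% in DKO and 84.6, 85.5 and 84.1% in WT, with no overlap. In the D-proximal section they were 88.0, 88.3 and 87.4% in DKO and 86.1, 87.2 and 88.4% in WT, with overlap. The D-distal difference was 4.38 points and the D-proximal one 0.64 points, but with equal CpG weights they were 3.35 and 2.53 points, and without WT replicate 1 the D-proximal one was 0.08 points.

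The trypsinogen interval was the most methylated part, at 92.0, 91.4 and 91.8% in DKO and 90.8, 91.3 and 89.7% in WT. The groups were just apart, with DKO replicate 2 next to WT replicate 2, and differed by 1.10 points in the mean (SE 0.51; exact permutation test, p = 0.1). They overlapped in windows with at least 5 CpGs or at least 20 reads, and the difference was 0.66 points without WT replicate 3. The D, J and C end of Tcrb was the least methylated part and the most variable. It was at 77.6, 84.4 and 82.1% in DKO and 78.3, 74.5 and 80.6% in WT, with overlap, and the difference was 3.60 points (SE 2.68; exact permutation test, p = 0.3, adjusted 0.45). It rested on 26 windows, and left-out samples moved it between 1.94 points without WT replicate 2 and 5.48 points without DKO replicate 1. With equal CpG weights it was 2.95 points, with no overlap (exact permutation test, p = 0.1). Of the 100 kb bins of Tcrb all 6 had a higher mean in DKO, where 14683 of 23992 autosomal bins did, and in 2 of 6 all DKO samples exceeded all WT samples, where 18.5% of autosomal bins did. The lowest bin (chr6:41100001-41200000) was at 87.8, 87.8 and 86.2% in DKO and 84.6, 86.6 and 86.3% in WT. The highest (chr6:41200001-41300000) was at 91.3, 93.7 and 94.1% in DKO and 91.7, 92.9 and 92.7% in WT.

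The remaining called window lay in the first kilobases of Tcrb, at the outer end of the V part. In the gene order Trbv1 stands there apart from the other V segments, with the protease gene Prss58 after it. Window chr6:40841001-40842000, with 11 CpGs and 33 to 121 reads, had levels of 18.2, 29.8 and 26.3% in DKO and 7.6, 3.6 and 0% in WT. Every DKO sample was above every WT sample, by 21.0 points in the mean (adjusted p = 0.0217), and 8 CpGs were higher, 1 lower and 2 equal. The window before it was also higher in every DKO sample, at 53.3, 40 and 56.0% in DKO and 28.3, 37.0 and 37.9% in WT, on 15 to 46 reads. A window at the other side (chr6:40843001-40844000) was at 51.1, 47.5 and 43.7% in DKO and 47.2, 40 and 43.8% in WT, with overlap.

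Among the other windows of Tcrb, chr6:41493001-41494000 in the D, J and C end had 31 CpGs and 124 to 235 reads. It was at 38.7, 71.6 and 50.4% in DKO and 36.9, 38.8 and 38.7% in WT. DKO replicates 2 and 3 were above all WT samples and DKO replicate 1 was within them, while the WT samples lay close together. Window chr6:41068001-41069000 was low in both groups, at 11.8, 12.1 and 21.7% in DKO and 12, 36.7 and 0% in WT. The largest uncalled differences without overlap were at chr6:40965001-40966000, with 84.8, 94.3 and 86.4% in DKO and 73.3, 68.9 and 35.0% in WT, and at chr6:41063001-41064000, with 64.3, 67.3 and 62.2% in DKO and 50, 37.9 and 21.7% in WT. The only tested window of Tcrb with every DKO sample below every WT sample was chr6:40845001-40846000, by 4.09 points.

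The difference at Igh was uneven along its V part. The V part as a whole had levels of 84.6, 84.4 and 85.4% in DKO and 83.5, 84.3 and 84.3% in WT. The 2 groups were just apart and differed by 0.75 points (SE 0.42; exact permutation test, p = 0.1, adjusted 0.18), close to the difference of the rest of the autosomes. The groups overlapped, at 0.60 points, in windows with at least 5 CpGs (exact permutation test, p = 0.4) and, at 0.30 points, in windows with at least 20 reads (exact permutation test, p = 0.6). Without DKO replicate 3 or WT replicate 1 the difference was 0.45 and 0.46 points. The C, J and D end was at 88.2, 88.1 and 89.4% in DKO and 88.4, 88.4 and 88.2% in WT, with overlap and a difference of 0.24 points (SE 0.42; exact permutation test, p = 0.9). Against autosomal windows of 3 to 10 CpGs the end was 0.47 points lower in DKO, with no overlap (exact permutation test, p = 0.1, adjusted 0.225). Its relative depth was 1.08, 1.09 and 1.10 in DKO and 1.04, 1.02 and 1.02 in WT, higher in every DKO sample.

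The following sections and stretches of Igh were set after the values had been seen and carry no test. The D-distal section of the V part was at 86.5, 87.3 and 87.5% in DKO and 84.6, 85.0 and 84.6% in WT, a difference of 2.37 points with no overlap. The D-proximal section was at 82.5, 81.2 and 83.1% in DKO and 82.3, 83.6 and 84.0% in WT, a difference of -1.01 points with overlap. Within each sample, the D-distal section was above the D-proximal section by 3.98, 6.10 and 4.37 points in DKO and by 2.24, 1.45 and 0.61 points in WT. Most windows of these sections were too thinly read to be tested one by one. In windows with at least 20 reads in every sample the D-distal section differed by 1.46 points. Among those windows, groups without overlap were higher in DKO in 10 and lower in 4 of 117 D-distal windows. They were higher in 8 and lower in 4 of 115 D-proximal ones, against 9.05% and 3.75% of all tested windows. These counts showed no such division. The median difference of the windows was 0.30 points in the D-distal and -0.93 points in the D-proximal section. Among windows from 50 to 80% it was 7.20 and -0.40 points.

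In bins of 100 kb, all DKO samples exceeded all WT samples in 10 of 27 bins of Igh, against 18.5% of autosomal bins, and were below them in 2 of 27, against 3.68%. Of the 10, 9 were the consecutive bins from chr12:116200001 to 117100000. The largest difference of these was 5.64 points, in chr12:117000001-117100000, at 84.0, 85.2 and 83.8% in DKO and 78.5, 78.0 and 79.6% in WT. The 2 lower bins were neighbours, near the D segments. The first (chr12:114900001-115000000) was at 79.3, 79.2 and 81.2% in DKO and 84.5, 84.3 and 84.9% in WT, a difference of -4.66 points. The second (chr12:115000001-115100000) was at 83.1, 80.7 and 82.8% in DKO and 84.3, 84.2 and 84.8% in WT. The lowest bin of the locus (chr12:115600001-115700000) was at 77.8, 70.9 and 74.7% in DKO and 68.5, 77.9 and 76.8% in WT, and the highest (chr12:114500001-114600000), over the constant genes, was at 89.9, 87.1 and 91.3% in DKO and 89.0, 90.4 and 89.7% in WT. Both of these overlapped.

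Over the Igh J and D segments (chr12:114666001-114722000) the levels were 89.1, 91.5 and 89.1% in DKO and 85.0, 84.2 and 86.9% in WT. The groups did not overlap and differed by 4.51 points, on 42 windows. Relative depth there was 1.15, 0.977 and 1.07 in DKO and 0.979, 0.943 and 0.950 in WT, with overlap, and its part in the level was not tested. Over the constant genes on one side (chr12:114490001-114666000) levels were 89.9, 88.0 and 90.9% in DKO and 89.9, 90 and 89.5% in WT. Over the interval before the V segments on the other side (chr12:114722001-114810000) they were 83.9, 85.7 and 85.1% in DKO and 86.1, 86.1 and 85.7% in WT. Both flanks overlapped between the groups.

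No window of Igh was called. The lowest tested window of the V part, chr12:115617001-115618000, was also the densest of the windows named here, with 41 CpGs. It was at 4.0, 7.9 and 1.7% in DKO and 1.1, 0 and 0% in WT, on 63 to 253 reads, and every DKO sample was above every WT sample. The second lowest, chr12:115251001-115252000, was at 45.6, 48.5 and 30.6% in DKO and 43.5, 26.1 and 40% in WT. In the end, window chr12:114516001-114517000 was at 46.3, 39.7 and 56.1% in DKO and 39.7, 60.0 and 50% in WT, and window chr12:114668001-114669000, in the stretch with the J and D segments, was at 55.2, 70.2 and 72.4% in DKO and 32.1, 71.7 and 55.0% in WT. Those 3 windows overlapped.

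The largest differences at Igh without overlap ran both ways. Higher in DKO were chr12:116421001-116422000, with 86.8, 76.7 and 61.1% in DKO and 51.5, 40.6 and 43.8% in WT, and chr12:116691001-116692000, with 80, 85.3 and 75.7% in DKO and 25.8, 69.4 and 64.0% in WT. Both lie in the D-distal section of the V part. Lower in DKO were chr12:114965001-114966000, in the D-proximal section, with 85.1, 64.7 and 50% in DKO and 94.7, 86.4 and 89.7% in WT, and chr12:114571001-114572000, over the constant genes, with 87.5, 70.4 and 82.1% in DKO and 90.5, 100 and 96.2% in WT.

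Igk was the locus whose mean level was not higher in DKO. Its V part, the largest of the 9 with 2203 windows, was at 85.2, 85.9 and 87.3% in DKO and 86.3, 86.6 and 87.1% in WT, with overlap and a difference of -0.54 points (SE 0.65; exact permutation test, p = 0.5, adjusted 0.56). The sign of this small difference turned when only windows with at least 20 reads were summed, to 0.09 points. Leaving out DKO replicate 3 made it -1.10 points, and leaving out DKO replicate 1 made it -0.08 points. Relative to the rest of the autosomes, which were higher in DKO, the V part was 1.35 points lower in DKO, with no overlap (exact permutation test, p = 0.1, adjusted over the 9 parts 0.45). Without DKO replicate 1 this was 0.75 points lower. Against autosomal windows of 3 to 10 CpGs it was 1.24 points lower, again with no overlap (exact permutation test, p = 0.1, adjusted 0.225). Divided at its midpoint, the V part differed by -0.95 points in the J-proximal section and by -0.16 points in the J-distal section, with overlap in both.

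The J and C end of Igk, with 32 windows, was at 87.2, 90.3 and 88.3% in DKO and 86.7, 87.3 and 88.7% in WT. The groups overlapped and differed by 1.05 points (SE 1.09; exact permutation test, p = 0.5). Its border mattered: moved by 10 kb to either side it gave 2.23 points, with overlap, and 2.7 points, with none (exact permutation test, p = 0.1). Without DKO replicate 2 the difference was 0.20 points, and without DKO replicate 1 it was 1.77 points. In bins of 100 kb, 8 of 32 had a higher mean in DKO, where 14683 of 23992 autosomal bins did. All DKO samples exceeded all WT samples in 0 of the 32, against 18.5% of autosomal bins, and all were below them in 6, against 3.68%. The lowest bin (chr6:69700001-69800000) was at 81.5, 81.2 and 84.6% in DKO and 80.8, 81.6 and 84.7% in WT. The highest (chr6:70300001-70400000) was at 87.1, 90.3 and 90.7% in DKO and 89.8, 90.6 and 92.0% in WT. Both overlapped.

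No window of Igk was called. The lowest tested windows near the border of its V and J parts, 3 in number, had means under 50% in 2 cases and from 50 to 80% in the third. Window chr6:70659001-70660000 was at 50, 31.0 and 41.9% in DKO and 20.0, 11.9 and 36.0% in WT. Window chr6:70663001-70664000 was at 43.0, 67.7 and 52.1% in DKO and 55.1, 80 and 78.0% in WT, and window chr6:70664001-70665000 was at 50, 16.7 and 28.0% in DKO and 26.7, 47.1 and 37.9% in WT. The groups overlapped in each of the 3, and the means differed in opposite directions within 6 kb. In the V part the lowest window was chr6:68618001-68619000, at 29.5, 33.3 and 31.2% in DKO and 18.6, 30.4 and 27.3% in WT.

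The largest differences at Igk without overlap were higher in DKO at chr6:67515001-67516000, with 63.5, 76.1 and 74.0% in DKO and 47.4, 46.8 and 25% in WT, and at chr6:69481001-69482000, with 97.9, 86.7 and 91.7% in DKO and 80, 57.1 and 82.6% in WT. Lower in DKO were chr6:68201001-68202000, with 42.0, 6.8 and 40% in DKO and 45.3, 66.7 and 53.7% in WT, and chr6:68136001-68137000, with 76.7, 90.2 and 81.2% in DKO and 92.3, 94.6 and 100% in WT. DKO replicate 2 stood far below the other DKO samples in the window at 68201001.

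The V minus end difference within a locus was tested at all 4 loci and separated the groups at none. It was 0.51 points higher in DKO at Igh (exact permutation test, p = 0.2). It was lower in DKO by 1.59 points at Igk (exact permutation test, p = 0.2) and by 1.30 points at Tcrb (exact permutation test, p = 0.5), beside the value for Tcra and Tcrd above. A higher level at the V part than at the end, or the reverse, was thus not shown to depend on the genotype at any of the 4 loci.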

How the data were processed

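The authors deposited a single table of methylated read counts and total read counts at each CpG of each sample, neither normalised nor pooled; the submitters' processing notes name BSMAP 2.74 and mm9. Read filters and duplicate removal are not stated in the labels. CpGs are only those listed, 20451903 in all, and there were 0 columns of other samples. Reads were summed over 1 kb windows, so a read counts at each CpG it covers, and intervals and floors cover counting error only. Coverage in the loci was low: 15.9% of the loci's windows had 20 reads in every sample, against 37.5% of autosomal windows.

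For part levels, tests were two-sided exact permutation tests. Windows were tested with a quasi-binomial model, dispersion moderated by the method of limma's squeezeVar (floor 1, prior 23.7 degrees of freedom) and an F test, in Python 3.11.15 with SciPy 1.17.1. The window test was first run on reads simulated from its own fitted dispersion, which cannot show that the model fits these data. Alternatives were other read and CpG minimums, weights, borders, tests and left-out samples. Loci, parts, naming rule and lists were chosen with earlier results of these data known. Named windows were the called ones, the 2 lowest tested windows of each part, the 2 largest differences without overlap in each direction of each locus, and the lowest and highest bin of each locus; bins and neighbours beyond these were chosen after their values were seen. Gene names and order come from RefSeq on GRCm38.p6.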

Additional observations from a re-analysis of the deposited data

How the results depend on the processing

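Few of the loci's windows were deep enough to be tested. The 3 calls became 0 with a minimum of 10 or of 40 reads, and 0 with limma on log2 ratios, which gave 52 windows higher and 14 lower at an unadjusted p under 0.05; Fisher's exact test on pooled reads, which ignores the spread between samples, called 66. Of all autosomal windows, 3854 were called in the main test, 304 and 271 under the 2 read minimums, 0 with limma and 50074 with Fisher's test. Leaving out single samples gave 0 to 1 calls in the loci and 29 to 749 on the autosomes. With the replicate block the loci and the autosomes had 0 calls. Deviations from the group mean over all tested windows correlated at 0.0034, 0.0036 and 0.0033 between same-numbered samples. Between samples of different number they correlated at -0.0020 to -0.0014, so each sample correlated best with its own number. Whether same-numbered samples share more than a number was not tested.

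The sign turned for several differences. The largest of them in the main setting were V minus end at Tcrb (-1.30 points) and the Igh interval before V (-1.05 points). Igk V came to 0.0916 points with at least 20 reads and 0.158 as the mean of window levels. Igh V relative to the autosomes came to 0.0444 against windows of 3 to 10 CpGs. Igh constant genes came to 0.00758 with at least 5 CpGs and 0.523 with equal CpG weights, the Igh interval before V to 0.215, the J-proximal section of Igk V to 0.0913 with at least 20 reads, and its J-distal section to 0.132 with at least 5 CpGs and 0.163 with at least 20 reads. Leaving out single samples, the differences ranged from -0.173 to 0.479 at the Igh end, -0.827 to 0.582 at the Igh constant genes, and -0.679 to 0.395 at the J-distal section of Igk V. Relative to the autosomes they ranged from -0.422 to 0.260 at Igh V, -1.08 to 1.10 at the Igk end, and -0.271 to 0.814 at the trypsinogen interval. The V minus end difference at Tcrb ranged from -3.49 to 0.543. Relative depth ranged from -0.0388 to 0.0299 at the Igk end, -0.0446 to 0.00438 at the trypsinogen interval, -0.0609 to 0.0407 at the Tcrb end and -0.0350 to 0.0108 at Tcra/Tcrd V. The cause was not tested. Tcra/Tcrd V kept 1.90 to 2.46 points, its end 3.02 to 3.98 and Tcrb V 1.96 to 2.62.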

Other observations

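Single CpGs were also searched for reads that were unmethylated in 1 sample alone. A CpG counted if the sample had at least 5 reads and 0 of them methylated, while the other 5 samples had at least 10 reads together, at least 90% of them methylated. At Igk V such CpGs numbered 5, 8 and 0 in the DKO samples and 2, 1 and 2 in the WT samples, of 2621, 2638 and 2012 CpGs that met the depth in DKO and 1445, 1541 and 1522 in WT. At Igh V they numbered 3, 4 and 0 in DKO and 1, 2 and 1 in WT. At Tcra/Tcrd V they numbered 1, 2 and 1 in DKO and 2, 0 and 0 in WT. The shares at Igk V were 0.191, 0.303 and 0% in DKO and 0.138, 0.0649 and 0.131% in WT. Those at Igh V were 0.136, 0.185 and 0% in DKO and 0.0715, 0.155 and 0.0712% in WT. Those at Tcra/Tcrd V were 0.0452, 0.0914 and 0.0595% in DKO and 0.142, 0 and 0% in WT. Each of these shares rests on 8 CpGs or fewer. DKO replicate 3 had 0 at both immunoglobulin V parts, and over the rest of the autosomes it also had the lowest share, 0.016%, against 0.106% and 0.0693% in DKO replicates 1 and 2 and 0.0512%, 0.0472% and 0.0516% in the WT samples.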
